A study of Mus musculus with 61 samples.

Results

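The 10 genes described here encode 3 trefoil factors (Tff1, Tff2 and Tff3), 5 mucins (Muc4, Muc5ac, Muc6, Muc13 and Muc20) and 2 gastrokines (Gkn1 and Gkn3), out of 46078 genes in the deposited count table. They were chosen by family and name, with earlier results of these data known, and do not cover these families in full. Every one of them is accounted for below. Of the 10, 9 were detected widely enough to be tested, and Gkn1 was not.

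Trefoil factors are small secreted peptides held compact by disulfide bonds, and they are stored and released together with mucus. In the stomach, Tff1 is made with the gel-forming mucin Muc5ac by surface mucous cells and Tff2 with Muc6 by gland mucous cells, whereas Tff3 is best known from intestinal goblet cells. Membrane mucins such as Muc4, Muc13 and Muc20 instead stay anchored in the apical membrane of ducts and other epithelia, and gastrokines are secreted by the gastric surface epithelium. Ducts of the normal pancreas make little gastric mucus, and gastric mucins and trefoil factors are known markers of metaplastic duct epithelium.

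The cells came from organoids grown from pancreatic ducts of C57BL/6 mice, infected with separate lentiviral vectors for Ngn3 (marked by GFP), Pdx1 (LSS-Orange) and MafA (tdTomato), 3 transcription factors that act in endocrine development, together with a doxycycline-dependent transactivator. After 8 days of doxycycline, cells were sorted by colour and sequenced as pools of 50 cells. Cells carried Pdx1, MafA, Pdx1 and MafA, Ngn3 and Pdx1, Ngn3 and MafA, or all 3 factors, each from cultures given wild-type Ngn3 (WT cultures) or the phospho-mutant with 6 altered phosphorylation sites (6SA cultures), which made 12 conditions of 2 or 3 replicates. Replicates 1 and 2 were at passage 2 and replicate 3 at passage 5, and every group shared the infection, the transactivator and the doxycycline. Cells without the GFP mark therefore had been through the same treatment, and uninfected cells and cells with Ngn3 alone were not analysed here. No passage 5 sample was analysed for WT or 6SA cells with Pdx1, for WT cells with MafA or for 6SA cells with all 3 factors. Of 61 libraries, the 58 with over 1000000 gene counts were used and technical repeats were summed, which gave 32 samples, 17 with and 15 without Ngn3, with 2579583 to 19461008 gene counts each. Levels are given as counts for each 1000000 counts of the sample on the genes tested, scaled between samples by the TMM method (CPM). In these units 3 counts, the least taken as detected, correspond to 0.136 to 1.01 CPM depending on the sample. This limit covers counting error only. The p-values measure the spread between these samples. In such bulk pools, fewer cells that use a gene and less RNA per cell cannot be told apart.

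Neurog3, the gene of Ngn3, had 7.87 CPM or more in every sample with the GFP mark and 0.788 CPM or less in every sample without it. Reads of the vectors and of the cell's own genes were not distinguished. For Pdx1 the ranges overlapped (9.84 CPM or more with its vector, 3.21 to 30.6 CPM without), and those of Mafa overlapped too (0 to 12.7 CPM with its vector, median 1.45 CPM, and 0 to 0.116 CPM without). Duct markers were present, the 12 of them summing to a median of 24667 CPM without and 7587 CPM with Ngn3, where the 10 endocrine markers summed to a median of 4792 CPM instead of 6.17 CPM.

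The genes lie in clusters, with positions given in GRCm38. Tff3 (chromosome 17, 31125306 to 31129646), Tff2 (31141049 to 31144282) and Tff1 (31161395 to 31165277) follow each other on the minus strand. Muc6 (chromosome 7, 141633456 to 141655319, minus strand) neighbours Muc5ac (141788972 to 141819231, plus strand). On chromosome 16, Muc4 (32735886 to 32782391, plus strand) runs into the end of Muc20 (32777419 to 32797435, minus strand). Both share 4973 bases, of which 627 are exonic in both, so reads from that stretch cannot be assigned to one gene without strand. Muc13 (33794037 to 33819934) stands apart on the same chromosome. Gkn1 (chromosome 6, 87345650 to 87350942) and Gkn3 (87383256 to 87388935) enclose Gkn2, another gastrokine.

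The promoters of Gkn3, Muc4 and Muc20 are shown because these 3 genes were lower when MafA was added to Ngn3 and Pdx1. They run from 250 bases before to 50 bases after the start, are taken from RefSeq on GRCm38.p6 and read 5′ to 3′ on the gene's strand, with capitals marking E-boxes (CANNTG), the letters that basic helix-loop-helix factors such as Ngn3 recognise. The windows are chr6:87388886-87389185 for Gkn3, chr16:32735636-32735935 for Muc4 and chr16:32797386-32797685 for Muc20.
Gkn3: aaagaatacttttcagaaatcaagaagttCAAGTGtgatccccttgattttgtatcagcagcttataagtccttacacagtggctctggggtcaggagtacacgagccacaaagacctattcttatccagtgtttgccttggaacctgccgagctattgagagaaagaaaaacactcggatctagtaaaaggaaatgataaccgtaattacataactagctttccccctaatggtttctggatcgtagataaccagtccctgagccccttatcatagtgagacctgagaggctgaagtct
Muc4: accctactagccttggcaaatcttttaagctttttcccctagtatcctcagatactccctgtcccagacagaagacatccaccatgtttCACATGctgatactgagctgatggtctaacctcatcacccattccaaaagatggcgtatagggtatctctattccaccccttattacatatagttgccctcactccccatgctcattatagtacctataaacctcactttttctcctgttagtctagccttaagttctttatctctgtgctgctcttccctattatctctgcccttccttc
Muc20: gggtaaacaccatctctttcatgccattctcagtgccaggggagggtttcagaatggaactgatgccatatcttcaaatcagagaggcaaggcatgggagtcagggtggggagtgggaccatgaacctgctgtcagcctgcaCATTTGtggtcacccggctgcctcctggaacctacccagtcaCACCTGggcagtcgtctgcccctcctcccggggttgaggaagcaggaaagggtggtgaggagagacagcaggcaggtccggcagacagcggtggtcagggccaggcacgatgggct
The Gkn3 and Muc4 windows each held 1 E-box and 3 copies of TAAT, the core recognised by homeodomain factors such as Pdx1, whereas the Muc20 window held 2 E-boxes and 0 copies of it. A part of the element recognised by Maf factors, TGCTGAC, was in none of the 3 windows. All motifs were searched on both strands. Of 32841 mouse promoters of this length, 72.3% held at least 1 E-box, 58% the homeodomain core and 4.67% the Maf element, so these matches are a description of the letters. Promoters of Tff1, Tff2, Tff3 and Muc5ac are not shown.

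Across all 6 matched pairs of conditions, Ngn3 was accompanied by higher counts of 2 of the 9 tested members and by lower counts of 4. Tff3 and Tff2 rose, whereas Muc4, Muc20, Gkn3 and Muc5ac fell, and Muc6, Muc13 and Tff1 did not pass the test. Of all 24004 genes tested, 11.1% rose and 10.5% fell in the same comparison. The median log2 fold change was -2.85 over the 9 members and 0.07 over all genes tested. Within WT cultures alone, Tff3 rose and Gkn3, Muc4 and Muc20 fell (1 and 3 members, where 4.23% and 4.36% of all genes did). Within 6SA cultures, Tff3 rose and the same 3 and Muc5ac fell (1 and 4 members, where 8.12% and 5.98% did). Duct markers moved the same way as the members that fell (7 of 12 lower, 0 higher), and endocrine markers the same way as those that rose (10 of 10 higher). Their part in the members' changes was not tested.

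Tff3, the trefoil factor of goblet cells, was the one member whose samples with and without Ngn3 did not overlap. Without Ngn3 it was at 0 in 10 of 15 samples and never above 0.721 CPM, with 13 counts in all. With Ngn3 its lowest, median and highest levels were 3.07, 28.3 and 101 CPM, and 5672 counts were found. Every sample with Ngn3 was thus above every sample without it, as for 0.542% of the genes tested. Pooled over samples, the level was 352-fold higher (95% counting interval 206 to 662). This interval covers counting error only, not the spread between samples. Of the 13 counts without Ngn3, 8 lay in WT replicate 1 with Pdx1, so the ratio depends on that sample. The fitted log2 fold change was 8.78 ± 0.66 (SE, edgeR adjusted p = 2.03e-10).

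In WT cells with Ngn3 and Pdx1, Tff3 stood at 10.4, 95.4 and 22.6 CPM in replicates 1 to 3, against 0.721 and 0 CPM with Pdx1. In 6SA cells with Ngn3 and Pdx1 it was at 9.15, 101 and 48.1 CPM, against 0 in both samples with Pdx1. Its mean was thus at least 209-fold higher, a bound that rests largely on replicate 2. The samples did not overlap in either culture, as for 6.43% (WT) and 8.73% (6SA) of the genes tested. Ngn3 and MafA together gave 39.8, 50.2 and 20.3 CPM in WT and 47, 62.4 and 80.2 CPM in 6SA cells, against 0.617 CPM or less with MafA. All 3 factors together gave 22, 3.07 and 10.1 CPM in WT and 8.48 and 28.3 CPM in 6SA cells, against 0.145 CPM or less with Pdx1 and MafA. Tff3 thus separated fully in each of the 3 combinations over both cultures, as did 2.08%, 2.14% and 5.66% of the genes tested.

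The Tff3 rise passed the test for each combination over both cultures. Its log2 fold change was 9.25 ± 1.196 with Pdx1 (edgeR adjusted p = 3.44e-05), 8.84 ± 1.13 with MafA (edgeR adjusted p = 1.90e-05) and 8.26 ± 1.01 with both (edgeR adjusted p = 2.34e-06). These fits rest on groups with almost no counts, so their size depends on how the model treats zeros. Of the 9 members tested, 1 was called higher in the pair with Pdx1 (1.32% of all genes), 2 in the pair with MafA (2.5%) and 1 in the pair with both (9.42%). Within WT cultures the pair with Pdx1 gave 6.49 ± 1.39 and did not pass (edgeR adjusted p = 0.0652), in a comparison where 0.108% of all genes did. In passage 2 samples alone, the difference over all pairs was 8.79 (edgeR adjusted p = 5.39e-08).

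Between combinations that all held Ngn3, the differences of Tff3 did not pass the test. Its log2 fold change was -1.69 ± 0.69 when MafA was added to Ngn3 and Pdx1 (edgeR adjusted p = 0.225) and -1.71 ± 0.69 when Pdx1 was added to Ngn3 and MafA (edgeR adjusted p = 0.169).

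**Figure D1:**
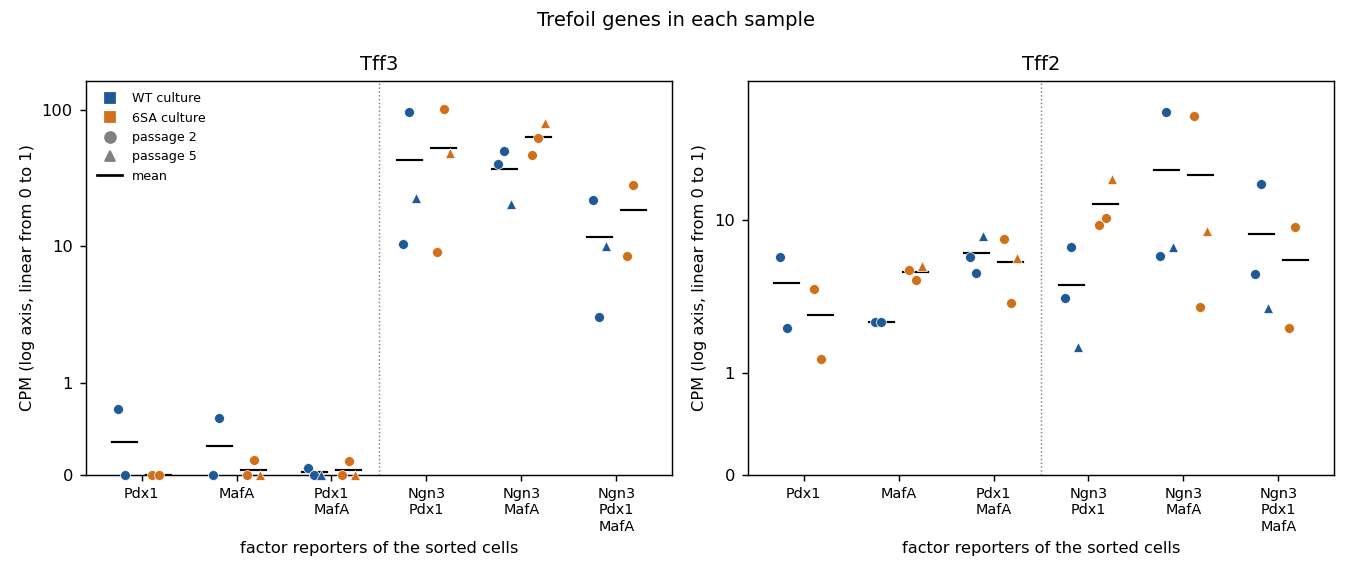
Tff3 and Tff2 in CPM (log axis, linear from 0 to 1) in each of 32 samples by the reporters of the sorted cells, coloured by culture, with circles for passage 2, triangles for passage 5 and lines for the mean of a condition. All 17 samples with Ngn3 lie above all 15 without it for Tff3, from 3.07 CPM upwards, whereas for Tff2 the ranges overlap and 2 samples with Ngn3 and MafA reach 51.4 and 48.6 CPM.

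Tff2, the trefoil factor of gastric gland mucous cells, was counted in all 32 samples. Without Ngn3 its lowest, median and highest levels were 1.24, 4.53 and 7.95 CPM, and with Ngn3 they were 1.48, 6.74 and 51.4 CPM. The ranges overlapped, and the highest samples all had Ngn3. Over all pairs the log2 fold change was 1.36 ± 0.42 (edgeR adjusted p = 0.0183), and for Ngn3 and MafA against MafA it was 2.71 ± 0.76 (edgeR adjusted p = 0.0359).

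Both Tff2 calls depended on single samples. WT cells with Ngn3 and MafA had 5.89, 51.4 and 6.66 CPM in replicates 1 to 3, and 6SA cells had 48.6, 2.7 and 8.56 CPM. One replicate in each culture was therefore many times above the others. Leaving out 6SA replicate 1 of these cells lowered the change over all pairs to 1.06 (edgeR adjusted p = 0.0527), and leaving out replicate 2 of 6SA cells with all 3 factors lowered it to 1.12 (edgeR adjusted p = 0.0654). Without any replicate 2 the change was 0.35 (edgeR adjusted p = 0.887), and with only the first technical repeat of each sample it was 0.97 (edgeR adjusted p = 0.180). The call for Ngn3 and MafA against MafA was lost without WT replicate 2 (log2 1.83, edgeR adjusted p = 0.179), without 6SA replicate 1 (1.79, 0.180), and without any 1 of the 5 samples with MafA (2.71 to 2.77, edgeR adjusted p from 0.0548 to 0.208). It was also lost without any replicate 1 (2.05, edgeR adjusted p = 0.326), without any replicate 2 (2.05, edgeR adjusted p = 0.446), with only the first technical repeat (1.29, edgeR adjusted p = 0.535) and with all libraries kept (2.71, edgeR adjusted p = 0.0829).

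Single pools showed where the high values lay. The 3 pools of 50 cells behind 6SA replicate 1 with Ngn3 and MafA held 15, 46 and 735 counts of Tff2, or 2.35, 13.9 and 131 CPM, each relative to the gene counts of that pool. In WT replicate 1 with all 3 factors the pools held 25.7, 0.296 and 0.674 CPM, the lower values from 1 and 4 counts. In 6SA replicate 1 with Ngn3 and Pdx1 the pools held 24.3, 0.484 and 5.05 CPM. In all 3 samples a single pool held most of the Tff2 counts. Tff3 in the same pools, in the same order, was at 29, 81.9 and 56 CPM, at 37, 54.5 and 2.53 CPM and at 6.59, 7.26 and 17.9 CPM, so its pools also differed.

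**Figure D2:**
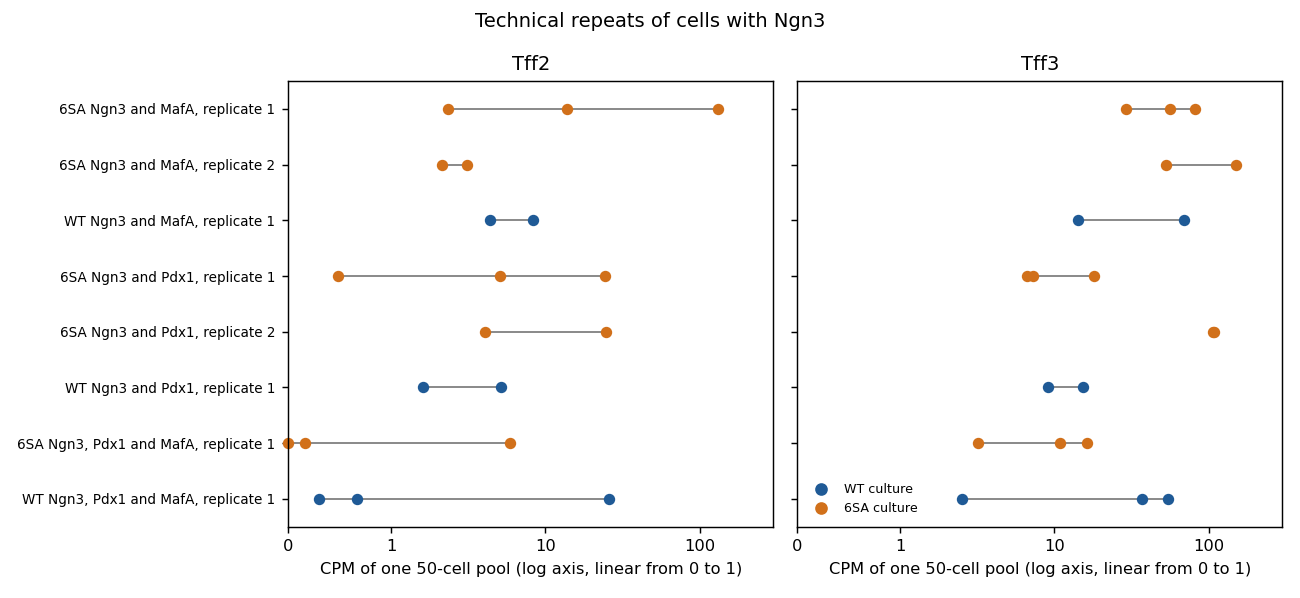
Tff2 and Tff3 in CPM (log axis, linear from 0 to 1) in single 50-cell pools of the samples with Ngn3 that had at least 2 pools, with one point for each pool and a line from the lowest to the highest pool of a sample. The Tff2 pools of 6SA replicate 1 with Ngn3 and MafA run from 2.35 to 131 CPM, and the Tff3 pools of the same sample from 29 to 81.9 CPM.

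Tff1, the trefoil factor of the gastric surface, had few counts. It was at 0 in 19 of 32 samples, and 4 samples had more than 3 counts. The highest levels were 2.56 CPM (22 counts) in 6SA replicate 2 with Ngn3 and Pdx1 and 1.85 CPM (6 counts) in WT replicate 2 with MafA. Samples with and without Ngn3 overlapped, with 40 and 18 counts in all, and the test over all pairs gave no usable error (edgeR adjusted p = 1.00). Tff1 also overlaps the annotated gene Gm15318, so its counts are uncertain.

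Muc5ac, the gel-forming mucin of the gastric surface, was detected almost only in replicate 1 without Ngn3. It had 107 counts without Ngn3, of which 106 were in replicate 1, and 6 counts with Ngn3. The highest levels were 3.42 CPM (61 counts) in 6SA replicate 1 with Pdx1 and 1.84 CPM (32 counts) in 6SA replicate 1 with MafA. No sample with Ngn3 had more than 3 counts, and all 6 samples with Ngn3 and MafA were at 0.

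Over all pairs Muc5ac fell by 3.21 ± 0.97 on the log2 scale (edgeR adjusted p = 0.0187). The call was lost without replicate 1 of the 6SA cells with MafA (log2 -2.24) or with Pdx1 (-1.99), or of the 6SA (-2.64) or WT (-2.70) cells with Pdx1 and MafA, and likewise without WT replicate 1 with Pdx1 (-2.47) or WT replicate 2 with MafA (-2.62), each with an edgeR adjusted p of 1.00. Without any replicate 1 the direction turned (log2 0.19, edgeR adjusted p = 1.00), and DESeq2 did not call Muc5ac (-2.85, adjusted p = 0.300).

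Muc6, the gel-forming mucin of gastric glands, was counted mainly in replicate 1. There it was found in all 12 samples, with a lowest, median and highest level of 1.26, 2.91 and 3.69 CPM without Ngn3 and 0.475, 2.00 and 2.66 CPM with Ngn3. In replicate 2 the medians were 0.0871 and 0.217 CPM. Replicate 1 held 241 of 249 counts without and 170 of 192 counts with Ngn3. Ngn3 made no called difference (log2 -0.67 ± 0.83, edgeR adjusted p = 0.758).

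Muc4 and Muc20, membrane mucins of ductal epithelia, fell together with Ngn3. Muc4, which binds the receptor Erbb2, had a lowest, median and highest level of 3.73, 21.2 and 62.4 CPM without Ngn3 and of 0, 0.665 and 21.2 CPM with it. Its log2 fold change over all pairs was -5.25 ± 0.63 (edgeR adjusted p = 5.91e-07). Muc20, which binds the receptor Met, had 19.7, 56.1 and 105 CPM without and 0.151, 7.32 and 38.5 CPM with Ngn3, and fell by 2.85 ± 0.32 on the log2 scale (edgeR adjusted p = 1.60e-07). Both falls also passed in passage 2 samples alone (log2 -5.27 and -2.64, edgeR adjusted p = 8.60e-07 and 2.42e-06). Pooled over samples, the levels with Ngn3 were 0.107 (95% counting interval 0.0973 to 0.117) and 0.2001 (0.191 to 0.210) of those without. These intervals cover counting error only, not the spread between samples. The fitted falls, which average over the pairs on the log2 scale, were larger.

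With Pdx1, Muc4 stood at 12.9, 6.07 and 1.8 CPM in WT and at 2.95, 21.2 and 0 CPM in 6SA cells with Ngn3, against 47.9 and 43.9 CPM (WT) and 62.4 and 19.4 CPM (6SA) without it. The WT samples did not overlap (8.77% of genes), the 6SA samples did, and the difference over both did not pass (log2 -2.53 ± 0.85, edgeR adjusted p = 0.167). With MafA, WT cells with Ngn3 had 0.161, 0 and 0 CPM and 6SA cells 0.611, 1.35 and 5.65 CPM, against 17.8 and 19.4 CPM (WT) and 21.2, 3.73 and 21.9 CPM (6SA). Again the WT samples did not overlap (10.7% of genes) and the 6SA samples did. With all 3 factors, WT cells had 1.3, 0 and 0.665 CPM and both 6SA samples were at 0, against 8.5, 31.9 and 13.1 CPM (WT) and 36.4, 47.4 and 14.1 CPM (6SA) with Pdx1 and MafA. The mean level in 6SA cells with all 3 factors was thus at least 141-fold lower.

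Muc4 fell by 5.24 ± 1.01 on the log2 scale with MafA (edgeR adjusted p = 0.00172). With Pdx1 and MafA its log2 fold change was -7.99 ± 1.34 (edgeR adjusted p = 0.000136), a size that depends on the treatment of zeros. Muc20 gave -1.71 ± 0.53 with Pdx1 (edgeR adjusted p = 0.120), -3.07 ± 0.54 with MafA (edgeR adjusted p = 0.000644) and -3.79 ± 0.61 with both (edgeR adjusted p = 7.23e-05). Without replicate 2, the calls with MafA were lost for both genes (log2 -5.08 and -3.09, edgeR adjusted p = 0.0603 and 0.0749). In these 3 pairs 0, 2 and 3 of the 9 members were called lower, against 0.171%, 2.17% and 8.4% of all genes. Muc20 levels with Ngn3 lay below those without Ngn3 in every sample of each pair, as for 2.05%, 2.03% and 5.42% of the genes tested, the Muc20 ranges with Ngn3 being 13.9 to 38.5, 0.151 to 13.9 and 2.31 to 7.32 CPM. Whether the effect of Ngn3 itself differed between these backgrounds was tested for 3 pairs of backgrounds. In the main edgeR fit (a single model of all 12 conditions, with its gene filter) 0 of the 9 members passed in each. There 3, 3 and 2 members had an unadjusted p under 0.05, and 0.0958%, 0.05% and 0% of all genes passed. DESeq2 called 2 members, Muc4 and Gkn3, and 224, 349 and 19 of all genes in these 3 tests, against 23, 12 and 0 in the main edgeR fit. With a term for replicate number (replicate block), edgeR called Gkn3, and 54, 62 and 0 of all genes. Without its gene filter edgeR called 2 members, and 542, 587 and 126 of all genes.

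**Figure D3:**
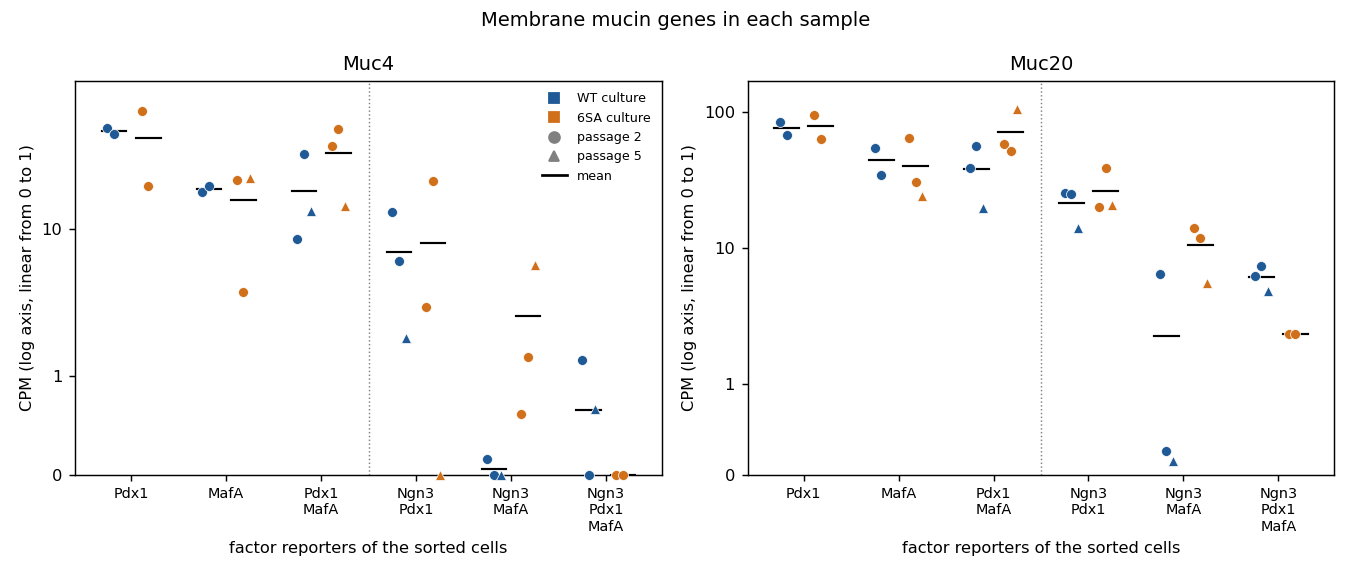
Muc4 and Muc20 in CPM (log axis, linear from 0 to 1) in each of 32 samples by the reporters of the sorted cells, with colours for the culture, circles and triangles for passages 2 and 5 and lines for the mean of a condition. Within each pair of conditions with and without Ngn3, the Muc20 samples with Ngn3 lie below those without, and Muc4 is at 0 in 6 of 17 samples with Ngn3.

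Muc13, a membrane mucin with epidermal growth factor-like domains, was restricted to few samples. It had 617 counts without Ngn3, of which 603 were in replicate 1, and 25 counts with Ngn3. The highest levels were 17.8 CPM in WT and 14 CPM in 6SA replicate 1 with Pdx1 and 7.95 CPM in 6SA replicate 1 with Pdx1 and MafA. All 11 samples with MafA but not Pdx1, with or without Ngn3, were at 0. Replicate 2 with Pdx1 had 0 CPM in WT and 0.9 CPM in 6SA cells, and no comparison of Muc13 passed the test in the edgeR fit with its gene filter. Without the filter it was called for Ngn3 with Pdx1 against Pdx1 and for Pdx1 added to MafA, and without edgeR's legacy setting for the first of these. The difference between Ngn3 with Pdx1 and Pdx1 was -5.61 ± 1.83 (edgeR adjusted p = 0.162). Over all pairs the fit gave no usable error. Muc13 also overlaps the annotated gene Gm15657.

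Gkn3, a gastrokine of the mouse stomach, ranged most widely. Without Ngn3 its lowest, median and highest levels were 0, 15.4 and 314 CPM, and with Ngn3 they were 0, 0.104 and 30.4 CPM. Every value above 4.89 CPM was in cells with Pdx1. With Pdx1 it stood at 314 and 15.4 CPM in WT and 106 and 15.5 CPM in 6SA cells, and with Pdx1 and MafA at 83, 163 and 0 CPM and at 30.7, 15.6 and 0 CPM, both zeros being the passage 5 samples.

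With MafA and no Pdx1, Gkn3 did not exceed 1.71 CPM without Ngn3 or 4.89 CPM with it. Cells with Ngn3 and Pdx1 kept 17.1, 30.4 and 6.89 CPM (WT) and 3.44, 12 and 0.637 CPM (6SA). Cells with all 3 factors had 1 count in all over 5 samples. In 6SA cells the mean was thus at least 66.5-fold below that of 6SA cells with Pdx1 and MafA, whose passage 5 sample was also at 0. Within 6SA cultures this difference did not pass (log2 -10.2 ± 3.29, edgeR adjusted p = 0.0639). Within WT cultures it passed (log2 -10.7 ± 2.55, edgeR adjusted p = 0.0125). All 6 samples with Ngn3 and Pdx1 had at least 4 counts, whereas 4 of 5 with all 3 factors had 0, which still allows up to 3.

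Over all pairs Gkn3 fell by 4.71 ± 0.92 on the log2 scale (edgeR adjusted p = 0.000374), and for all 3 factors against Pdx1 and MafA the value was -10.48 ± 2.15 (edgeR adjusted p = 0.00108), a size that depends on the treatment of zeros. The first of these was lost without replicate 1 of the 6SA cells with MafA (log2 -3.79, edgeR adjusted p = 1.00) or of the WT cells with MafA (-4.40, edgeR adjusted p = 0.0990), and without any replicate 1 (-3.24, edgeR adjusted p = 1.00). The second was lost without replicate 2 (-9.96, edgeR adjusted p = 0.0805). The value over all pairs is a mean over the backgrounds, which differed in size. With Pdx1 alone as the background the log2 fold change was -3.35 ± 1.21 and did not pass (edgeR adjusted p = 0.215). With MafA alone as the background it was -0.30 ± 1.34 and did not pass, at -2.22 in WT and 1.62 in 6SA cultures. For Pdx1 and MafA against MafA it was 5.44 ± 1.505 and did not pass either (edgeR adjusted p = 1.00), in a comparison where 0% of all genes tested were called.

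**Figure D4:**
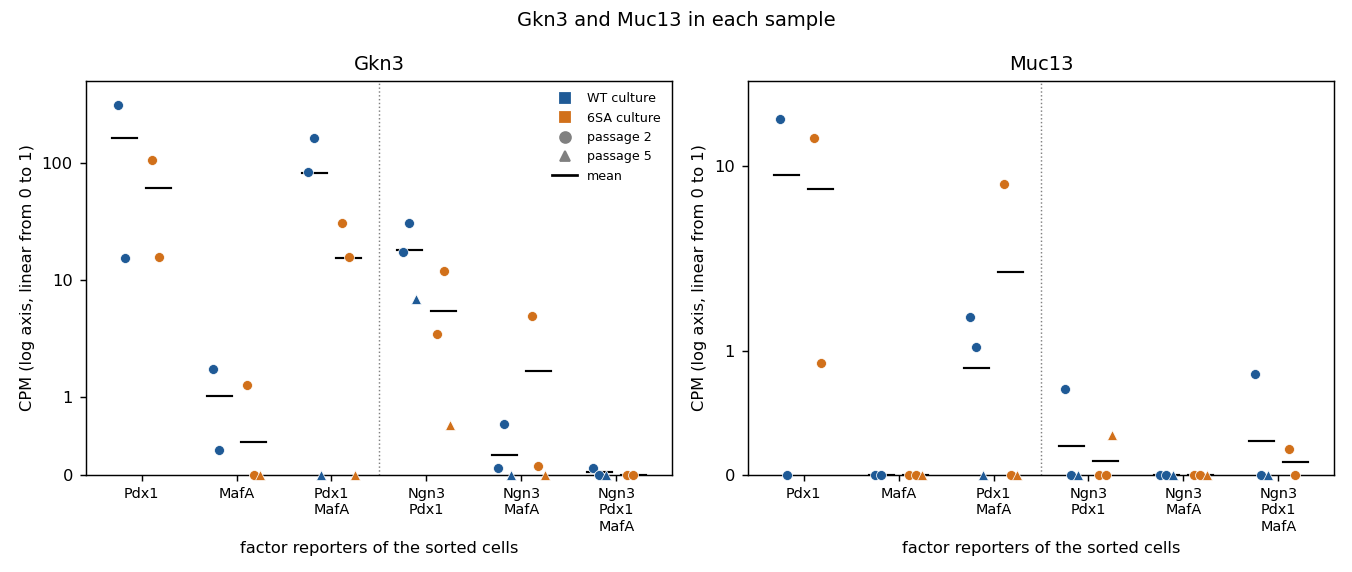
Gkn3 and Muc13 in CPM (log axis, linear from 0 to 1) in each of 32 samples by the reporters of the sorted cells, with colours for the culture, circles and triangles for passages 2 and 5 and lines for the mean of a condition. Gkn3 reaches 314 CPM with Pdx1 and is at 0 in both passage 5 samples with Pdx1 and MafA, and Muc13 is at 0 in all samples with MafA but not Pdx1.

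Gkn1, the abundant gastrokine of the human and mouse stomach, had 0 counts in all 32 samples, which allows up to 0.136 to 1.01 CPM per sample. Gkn2, which lies between Gkn1 and Gkn3, had 1 count in 1 sample. Of the 3 gastrokine genes in this cluster, Gkn3 was thus the one with more than 1 count.

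Adding MafA to Ngn3 and Pdx1 lowered 3 of the 9 members and raised 0, against 1.35% of all genes lower and 0.525% higher. The log2 fold change was -6.31 ± 1.28 for Muc4, -2.65 ± 0.57 for Muc20 and -8.62 ± 2.07 for Gkn3 (edgeR adjusted p = 0.00801, 0.0119 and 0.0253). Muc20 and Gkn3 did not overlap between these groups, as for 0.962% of genes, with 13.9 to 38.5 CPM of Muc20 against 2.31 to 7.32 CPM, and 0.637 to 30.4 CPM of Gkn3 against at most 0.081 CPM. In passage 2 samples alone all 3 calls were kept. All 3 were lost without replicate 2 (log2 -5.04, -2.48 and -7.64, edgeR adjusted p = 0.475, 0.545 and 0.640) and when either 6SA sample with all 3 factors was left out, which leaves 1 sample in that group that is taken to vary like the others. The log2 values then were -6.29 and -6.30 for Muc4 (edgeR adjusted p = 0.0907 and 0.0710), -2.64 and -2.66 for Muc20 (0.0974 and 0.0838) and -8.60 and -8.61 for Gkn3 (0.159 and 0.134).

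The Gkn3 call was also lost without 6SA replicate 2 with Ngn3 and Pdx1 (log2 -7.96, edgeR adjusted p = 0.0565) and without WT replicate 1 (-9.57, 0.0604) or replicate 2 (-8.46, 0.0565) with all 3 factors. Among duct markers 4 of 12 also fell when MafA was added, and endocrine markers did not pass in either direction (0 of 10). Adding Pdx1 to Ngn3 and MafA changed none of the 9 members in the main edgeR fit or with DESeq2 (3 at an unadjusted p under 0.05), where the main fit called 2.72% of all genes. Without Ngn3, neither Pdx1 added to MafA nor MafA added to Pdx1 changed a member in the main edgeR fit or with DESeq2 (2 and 0 members at an unadjusted p under 0.05). The main fit called no gene of 24004 in either. With the replicate block edgeR called 2 and 0 genes. Without the gene filter it called 61 and 28 genes, among them 2 members for Pdx1 added to MafA. Without the filter it also called 2 members for Pdx1 added to Ngn3 and MafA.

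**Figure D5:**
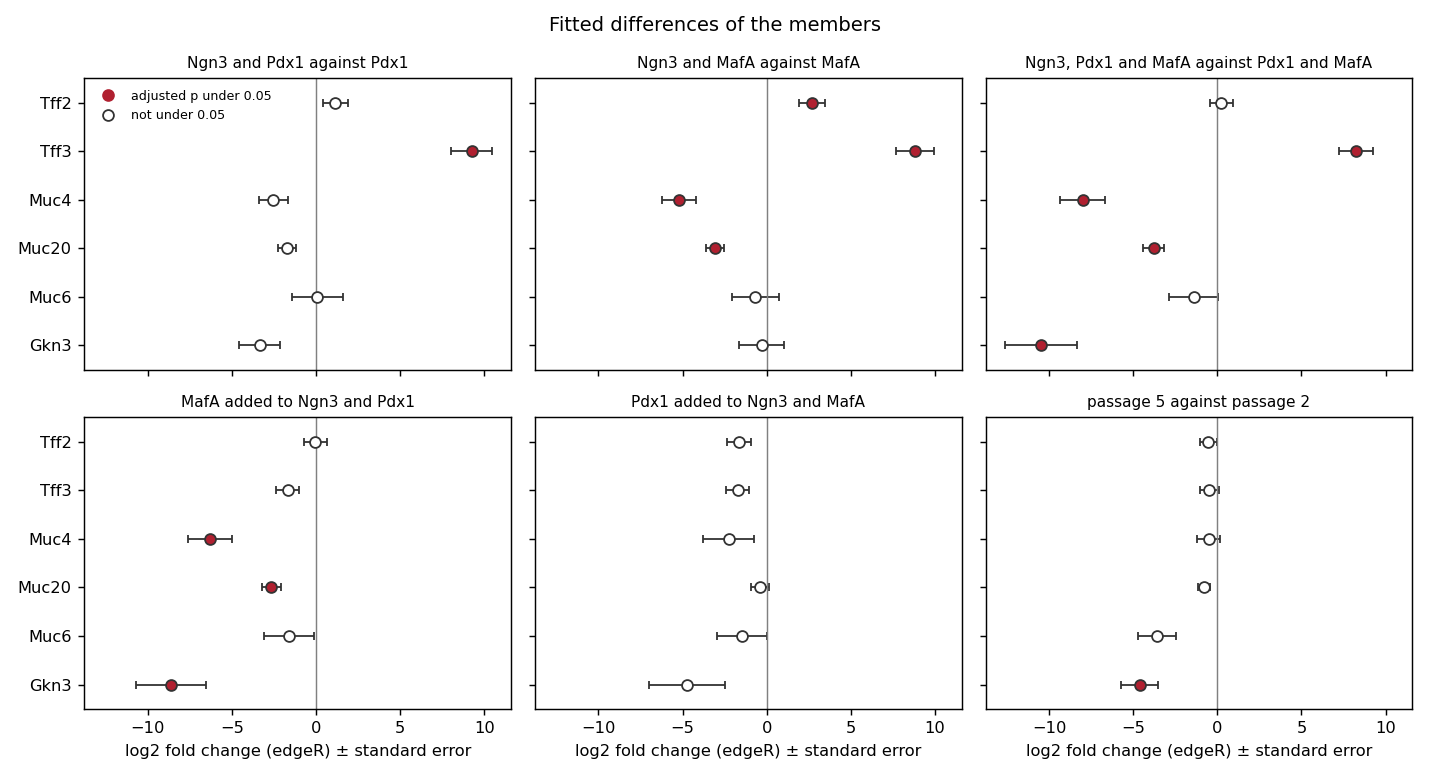
Fitted log2 fold changes of 6 members in 6 comparisons, each point with its standard error and filled in red where the edgeR adjusted p is under 0.05. Tff3 lies between 8.26 and 9.25 in the 3 comparisons of Ngn3, and Muc4, Muc20 and Gkn3 are the members that fell when MafA was added to Ngn3 and Pdx1, where fits that involve groups at 0 depend on the treatment of zeros.

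The form of Ngn3, which the study set out to compare, made no called difference to any member. Over the 3 combinations, 0 of 9 members passed with edgeR or DESeq2 and 0 had an unadjusted p under 0.05. Of all genes tested, edgeR with its gene filter called 0% and DESeq2 called 26 genes. Tff3 had a lowest, median and highest level of 3.07, 22 and 95.4 CPM in WT and 8.48, 47.5 and 101 CPM in 6SA cells with Ngn3, with a log2 difference of 0.58 ± 0.52. For Tff2 it was 0.38 ± 0.55, for Muc20 0.35 ± 0.42 and for Gkn3 -0.27 ± 0.79. Muc4 averaged 2.54 CPM in WT and 3.96 CPM in 6SA cells with Ngn3, whereas its fitted log2 difference was -0.22 ± 0.38, so no size or direction is read from that fit. The same contrast in cells without Ngn3 called 0 members by either tool (0 at an unadjusted p under 0.05), where edgeR with its gene filter called 0% of all genes and DESeq2 called 8 genes. The difference between the Ngn3 effects of the 2 cultures also called 0 members by either tool, where edgeR with its gene filter called 0% of all genes and DESeq2 called 5 genes. One member, Tff3, had an unadjusted p under 0.05 there (log2 2.98 ± 1.42, edgeR adjusted p = 1.00).

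Passage was accompanied by lower Gkn3. At passage 5 all 3 samples without Ngn3 were at 0, whereas at passage 2 the lowest, median and highest levels were 0, 15.6 and 314 CPM. These groups differ in make-up, since cells with Pdx1 alone, which held the highest level, had no passage 5 sample. Cells with Pdx1 and MafA went from 83 and 163 CPM (WT) and 30.7 and 15.6 CPM (6SA) at passage 2 to 0 at passage 5. The 6SA cells with MafA were already at 1.27 and 0 CPM at passage 2. With Ngn3 the 5 passage 5 samples had at most 6.89 CPM, against at most 30.4 CPM at passage 2. With condition held constant, Gkn3 fell by 4.62 ± 1.09 on the log2 scale (edgeR adjusted p = 0.0113), 1 of the 9 members, while 5.07% of all genes fell and the median of all genes was -0.26. Muc6 gave -3.58 ± 1.15 (edgeR adjusted p = 0.0511), just outside the threshold, and the other 7 members did not pass. Passage 5 samples are all replicate 3, so passage and replicate cannot be told apart, and 7 of 10 endocrine markers also fell with passage.

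Compared per kilobase of exon, the ranking of the members changed with Ngn3. Without it, Gkn3 had the highest median level (17.96 CPM per kb), followed by Muc20 (13.9), Tff2 (7.76) and Muc4 (1.80). This order pooled conditions that differed, since in cells with MafA alone Gkn3 averaged 1.18 (WT) and 0.494 (6SA) CPM per kb against 11 and 9.86 CPM per kb for Muc20. With Ngn3, Tff3 led at 57.4 CPM per kb, followed by Tff2 (11.5) and Muc20 (1.82). All neighbours in both orders overlapped in their samples, among them Gkn3 (0 to 366 CPM per kb) and Muc20 (4.90 to 26.1) without Ngn3, and Tff3 (6.23 to 205) and Tff2 (2.53 to 88.0) with it.

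The genes whose levels ran most nearly parallel over the 32 samples differed between members. By Pearson's r of log2(CPM + 1) over 10174 genes with a mean of at least 10 CPM, Tff3 was closest to Ghrl, which encodes ghrelin (r = 0.931), and to Chgb and Scg3, granule proteins of endocrine cells (0.893 and 0.891). Muc20 was closest to Adgre5 (0.917), Dram1 (0.907) and Slc26a9, an epithelial anion transporter (0.895), and Muc4 to Map3k1 (0.880), Ltf (0.873) and Slc26a9 (0.867). Gkn3 was closest to F5 (0.821), Dclk1, a marker of tuft cells (0.807), and Slc5a9 (0.761). These values describe samples that share their factors, cultures and libraries. Muc4 and Muc20 had r = 0.852 over all samples, 0.533 without and 0.678 with Ngn3, the exons of the 2 genes overlapping as given above. Tff3 and Tff2, neighbours on the chromosome, had r = 0.432 over all samples, -0.05 without and 0.254 with Ngn3.

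Of 14 other mucins in the table, 10 were tested, and 2 fell and 0 rose with Ngn3 (10.5% and 11.1% of all genes). Their median log2 fold change was 0.25. Muc1, the main membrane mucin of pancreatic ducts, went from 562 to 1117 CPM without Ngn3 to 19.3 to 399.7 CPM with it (log2 -2.75 ± 0.24, edgeR adjusted p = 1.98e-09). Mucl3 had at most 41 counts in a sample and gave -3.33 ± 0.97 (edgeR adjusted p = 0.0153).

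Of 25 enzymes that build mucin sugar chains, 5 rose and 5 fell (11.1% and 10.5% of all genes), with a median of -0.05. Gcnt3, which branches mucin glycans, had a median of 12.6 CPM without and 106 CPM with Ngn3 (log2 2.19 ± 0.54, edgeR adjusted p = 0.00338). Gcnt4, St6galnac2 and Galnt12 rose as well (log2 4.75, 2.499 and 1.17), whereas the sialyltransferase St3gal4 fell by 1.27 ± 0.18 (edgeR adjusted p = 7.41e-06). B4galnt3, Galnt4 and Galnt3 also fell (log2 -2.67, -1.23 and -1.22).

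Of 17 genes of mucous secretion tested, 7 fell and 2 rose (10.5% and 11.1% of all genes), with a median of -0.81. Agr2, the disulfide isomerase needed to fold mucins, had a median of 5.92 CPM without Ngn3 and was at a median of 0 with it (log2 -4.42 ± 0.86, edgeR adjusted p = 0.000386). Dmbt1, a secreted mucosal scavenger protein, fell by 4.50 ± 0.45 (edgeR adjusted p = 2.67e-08), and Ctse and Lgals2 fell too (log2 -3.29 and -3.24). Creb3l1, a factor for secretory capacity, rose by 1.32 ± 0.22 (edgeR adjusted p = 6.91e-05), as did Capn8 (3.90 ± 1.25, edgeR adjusted p = 0.0261). Spdef, the goblet cell regulator, did not pass, with at most 3.75 CPM without and 13.9 CPM with Ngn3.

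Gastric lineage markers gave 4 higher and 3 lower of 14 tested (11.1% and 10.5% of all genes), with a median of 0.97. Atp4a, a subunit of the gastric proton pump, had medians of 2.52 CPM without and 14.9 CPM with Ngn3 (log2 3.83 ± 0.54, edgeR adjusted p = 5.01e-06), and Chia1, Anxa10 and Tmem184a also rose (log2 3.77, 3.08 and 1.18). Aqp5, Foxq1 and Vsig1 fell (log2 -5.16, -2.91 and -2.77). Pga5 and Lipf were at 0 in every sample and Pgc and Gkn2 had at most 3 counts in any, whereas Atp4a reached 611 CPM. The summed level of the 22 genes was 74.9 to 212 CPM without and 48.1 to 790 CPM with Ngn3.

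Intestinal markers gave 0 higher and 1 lower of 6 tested over all pairs, against 11.1% and 10.5% of all genes. The gene that fell was Vil1 (log2 -1.82 ± 0.24, edgeR adjusted p = 1.75e-06). Retnlb, Atoh1 (a regulator of goblet cells), Fabp1, Alpi and Sis were at 0 in all samples, those with up to 101 CPM of Tff3 included. With all 3 factors against Pdx1 and MafA, 1 of the 6 was higher and 1 lower (9.42% and 8.4% of all genes). For MafA added to Ngn3 and Pdx1, 1 was higher and 0 lower (0.525% and 1.35%). For Pdx1 added to Ngn3 and MafA it was also 1 and 0 (2.72% in either direction). For Ngn3 and MafA against MafA, 0 were higher and 1 lower (2.5% and 2.17%). The summed level of the 14 intestinal genes was 4.39 to 670.0 CPM with and 45.7 to 151 CPM without Ngn3. All 5 tested receptors and partners fell, among them Erbb2 (log2 -1.50 ± 0.28, edgeR adjusted p = 0.000226), the partner of Muc4, Met (-0.89 ± 0.21, edgeR adjusted p = 0.00273), the partner of Muc20, Erbb3 (-1.96) and Ackr3 (-2.80). Among duct markers, Krt19 gave -3.27 and Spp1 -3.26. Stromal and blood markers gave 0 of 5 called with edgeR, with summed levels of 0.675 to 325 CPM with and 3.91 to 18.6 CPM without Ngn3. Endocrine markers rose in 10 of 10 cases, led by Scg2, Isl1, Neurod1 and Chgb, each with 3.12 CPM or less in every sample without Ngn3.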

How the data were processed

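Pools of 50 sorted cells were sequenced as single-end reads of 50 bases from Nextera XT libraries. The authors aligned reads to mm10 with GSNAP, counted them per Ensembl gene with HTSeq (0.5.3p3) and deposited raw counts. A median of 14.0% of reads had no feature, 6.48% were ambiguous and 19.8% were not aligned, and whether strand was used in counting is not given in the sources used here.

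Of 61 libraries, 58 with over 1000000 gene counts were kept and technical repeats were summed to 32 samples. One model of all 12 conditions was fitted to 24004 genes with edgeR (4.0.16, R 4.3.3) quasi-likelihood tests, TMM scaling and trended dispersion, with Benjamini-Hochberg adjustment over all genes and a threshold of 0.05. Standard errors were derived from the fold change and its F statistic. CPM used TMM library sizes, and 3 counts were the floor. DESeq2 (1.42.0), other filters and scalings, and leaving out samples served as alternatives. The dispersion trend of all samples was kept where a single sample was left out. It was estimated anew where all samples of a replicate number were left out. Scripts were tested on simulated data.

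The members and gene lists were chosen with earlier results of these data known. All members are named, together with up to 4 called genes of each list in each direction by size of the change, Spdef, Agr2, Creb3l1 and Gkn2 whether called or not, and the 3 genes most like each member with a mean of at least 10 CPM. The result of one marker list is not reported here.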

Additional observations from a re-analysis of the deposited data

Results flagged for a closer look

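The 3 libraries left out for their low depth were all from cells with all 3 factors. They held Tff2 and Tff3 above the highest level in any summed sample without Ngn3 (7.95 and 0.721 CPM). Single pools without Ngn3 reached 12.9 CPM of Tff2 (6SA replicate 1 with Pdx1 and MafA) and 2.08 CPM of Tff3 (WT replicate 1 with Pdx1). Among single pools, the WT library at 11.19 CPM of Tff2 was thus not above all those without Ngn3. In 6SA replicate 3 (408733 gene counts), Tff2 stood at 183.5 CPM and Tff3 at 247.1 CPM. In one repeat of 6SA replicate 2 (241563 gene counts) they stood at 99.35 and 53.82 CPM, and in one repeat of WT replicate 2 (625650 gene counts) at 11.19 and 78.32 CPM. Gkn3, Muc4, Muc13, Muc5ac and Muc6 had 0 counts in each of the 3, whose depth was not enough to tell a low level from 0. Values of these libraries are relative to their plain gene counts, and the reason for their low depth was not tested.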

How the results depend on the processing

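Tff3 in every comparison of Ngn3 over both cultures, and Muc4 and Muc20 over all pairs and with all 3 factors, passed under every alternative run. With Ngn3, 2 members were higher, but 1 when the first technical repeat, WT cultures or 6SA cultures alone were used (1 to 2 when a replicate was left out), and 4 were lower (2 to 4). For Ngn3 with Pdx1 against Pdx1, 1 member was called, but 2 by DESeq2, 5 without a gene filter, 5 without edgeR's legacy setting (an alternative chosen after seeing the data) and 3 with only the conditions compared (1 to 2), where 358 of all genes were called and 911, 1273, 684 and 451 in the same alternatives. With MafA 4 were called (1 to 4), and with both 4 (3 to 4). The Ngn3 effect differed between combinations for 0 members, but for 2 by DESeq2, 2 without a filter and 1, Gkn3, with the replicate block (0 to 2). MafA added to Ngn3 and Pdx1 gave 3 (0 to 4). Without a filter, 2 members were called for Pdx1 added to Ngn3 and MafA and 2 for Pdx1 added to MafA, where edgeR with its filter gave 0. Passage gave 1, but 2 (Gkn3 and Muc6) by DESeq2, with filterByExpr, without a filter, with all libraries and without the legacy setting (1 to 2). Muc5ac over all pairs ran from -3.72 to 0.19 when a replicate was left out, turning direction without replicate 1. With the replicate block it gave -2.68 (adjusted p = 0.0724), and the block changed no other member's call over all pairs. Replicate numbers were not taken as pairs, since that needed every same-numbered pair with and without Ngn3 to correlate above 0.1 and 12 of 14 did (range -0.387 to 0.746, both others being 6SA cells with all 3 factors). Over all conditions the median correlation was 0.419 for the same number and -0.246 for other numbers, a hint from the data, and every replicate 3 was from passage 5. The causes were not tested. A floor of 3 counts was 0.136 to 1.01 CPM, and some zeros lay in samples deep enough to show the level of another replicate, as for Muc13 with Pdx1 in WT cells (17.8 CPM in replicate 1 and 0 in replicate 2, with a floor of 0.838 CPM).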
